A study of Mus musculus with 16 samples.

Results

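Fmo1, Akr1c14, Slc4a10 and Ambp are 4 of the 25105 genes listed in bulk RNA sequencing of dispersed mouse islet cells. They were chosen by their measured values, as the genes that differed most and most evenly between Ad-Cre and Ad-LacZ outside the known genes of ER stress. In that comparison Fmo1, Akr1c14 and Slc4a10 were lower and Ambp was higher in the libraries labelled Ad-Cre, so these differences are given as a description with no test. The same 4 genes were then followed in the cultures with JNK inhibitor, which the stated reason for the choice does not name. Whether those cultures were also looked at when the genes were picked is not known.

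All 16 cultures came from Grp78 fl/fl mice, in which the gene of the chaperone GRP78 is flanked by loxP sites. There were 4 islet preparations, called F1, F2, M1 and M2 after the sex in the labels. Cells of each received an adenovirus with LacZ (Ad-LacZ, the control) or one with Cre recombinase (Ad-Cre, the knockdown), either alone or together with JNK-IN-8, an inhibitor of JNK, and were collected after 72 hours in 15 mM glucose. Each group held 4 libraries, 1 per preparation; the labels give 2 animal numbers per preparation, and the study's methods give the age of the mice only as a wide range of weeks. The cultures held mixed islet cells, and the labels name no promoter or cell type that restricts Cre.

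Depth was 7723000 to 25466000 reads per library, to the nearest 1000, and the lowest belonged to Ad-Cre + JNK inhibitor in F2, the 1 library from another sequencing run. Values are RPKM, reads per kilobase of exon scaled to the reads of the library, and values of several libraries are given in the order F1, M1, M2, F2. The gene targeted by Cre, listed as Hspa5, had 438 ± 49.0 RPKM in Ad-LacZ and 1264 ± 231 RPKM in Ad-Cre (SD, n = 4 each), which goes against the label of a knockdown. A value for the whole gene cannot tell reads of deleted exons apart from the rest, and GRP78 protein and PCR measurements were not analysed here. Directions below are therefore those of the libraries labelled Ad-Cre. All 27 markers of β cells were above 0 in each library, with summed levels of 39601 to 96094 RPKM.

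The 4 genes belong to unrelated families. FMO1 is a flavin-containing monooxygenase of the ER membrane that oxidizes nitrogen and sulfur atoms of drugs and of small metabolites. AKR1C14 is a 3α-hydroxysteroid dehydrogenase, which acts on steroids after a 5α-reductase has reduced them. SLC4A10 carries bicarbonate into cells with sodium and so helps to raise intracellular pH. AMBP is a secreted precursor that is cut into the lipocalin α1-microglobulin, which binds heme, and bikunin, a Kunitz-type protease inhibitor that is linked to the heavy chains of inter-α-inhibitor; the liver is its best known source.

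In GRCm38 with the GENCODE M21 annotation, Fmo1 (ENSMUSG00000040181) lies on the minus strand of chromosome 1 from 162829561 to 162866610, with 6304 bases in 11 merged exons. Akr1c14 (ENSMUSG00000033715) lies on the plus strand of chromosome 13 from 4049011 to 4090688, with 3239 exon bases. It shares 234 of them with the pseudogene Gm18857 on the same strand, so a part of its reads cannot be told apart from that gene. Slc4a10 (ENSMUSG00000026904) spans 280.3 kb of chromosome 2, from 62046462 to 62326730 on the plus strand, with 29 merged exons. Ambp (ENSMUSG00000028356) lies on the minus strand of chromosome 4 from 63143275 to 63154799, with 1409 exon bases. The values are per gene and do not separate the 8 annotated transcripts of Fmo1, the 7 of Slc4a10 or the 2 of Ambp.

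Promoter sequence is shown for the 3 genes that had an entry in the RefSeq table used, to set beside each other genes that were low (Akr1c14, Slc4a10) and high (Ambp) in the same libraries. The windows are the 250 bases before a RefSeq start site (GRCm38.p6), printed 5′ to 3′ on the strand of the gene and without bases that lie in an annotated exon. They are chr13:4059341-4059540 (plus) for Akr1c14, chr2:62046265-62046461 (plus) for the first start of Slc4a10 and chr4:63154174-63154422 (minus) for Ambp, and capitals mark matches to the motifs named below. The windows of Akr1c14 and Ambp lie inside the annotated genes, whose 5′ ends are at 4049011 and 63154799. The sequence before those ends was not searched.
Akr1c14: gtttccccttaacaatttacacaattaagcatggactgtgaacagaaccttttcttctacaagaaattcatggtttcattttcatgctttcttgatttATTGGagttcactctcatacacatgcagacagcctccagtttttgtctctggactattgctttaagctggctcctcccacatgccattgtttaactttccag
Slc4a10: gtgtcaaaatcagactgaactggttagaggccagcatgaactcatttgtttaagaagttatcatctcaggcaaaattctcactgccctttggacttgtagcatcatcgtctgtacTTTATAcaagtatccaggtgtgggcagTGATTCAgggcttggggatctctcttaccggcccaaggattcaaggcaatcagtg
Ambp: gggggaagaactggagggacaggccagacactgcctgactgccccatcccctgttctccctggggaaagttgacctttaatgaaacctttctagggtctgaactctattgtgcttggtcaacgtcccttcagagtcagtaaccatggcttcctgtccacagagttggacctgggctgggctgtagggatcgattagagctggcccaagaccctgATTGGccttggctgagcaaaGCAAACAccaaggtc

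A set of 12 motifs was searched on both strands of the 250 bases. They were the ERSE of ATF6 and XBP1 (CCAAT, 9 bases of any kind, CCACG), the UPRE core (TGACGTG), the CRE (TGACGTCA), the CARE of ATF4 and CHOP (TGATGNAA), AP-1 (TGANTCA), a MAF half-site (TGCTGAC), the E-box CAGATG, a FOXA site (TGTTTNC), an HNF4 core (CAAAGTCCA), an HNF1 site (GTTAAT and ATTAAC, 1 base apart), CCAAT alone and TATAAA. The UPRE core and the CRE can overlap, and CCAAT is a part of the ERSE. No match to the ERSE, the UPRE core, the CRE or the CARE was in any of these windows, where 0.113%, 1.65%, 1.55% and 3.45% of all 32851 promoter windows had one.

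The window of Akr1c14 held CCAAT from -152 to -148, counted back from the start site, a motif found in 33.8% of all windows. That of Ambp held CCAAT from -36 to -32 and a FOXA match from -16 to -10, the latter found in 17.8% of all windows. The window at the first start of Slc4a10 held an AP-1 match from -108 to -102 (6.75% of all windows) and TATAAA from -135 to -130 (12.4%). At the second start of Slc4a10, at 62147878 and inside the annotated gene, a MAF half-site was present (3.81% of all windows) along with CCAAT. A match is a description of these letters, not of a site in use. The 3 genes shared no motif of this set other than CCAAT. The windows held 1 to 3 CpG dinucleotides, against a median of 6 over all windows.

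In the Ad-LacZ cultures the 4 genes were expressed at middle to high levels. Among the 11574 genes above 1 RPKM there, Ambp lay above 83.6%, Slc4a10 above 76.2%, Akr1c14 above 74.4% and Fmo1 above 50.7%. Mean levels were 24.8 ± 5.14 RPKM for Ambp, 17.6 ± 0.526 for Slc4a10, 16.5 ± 2.93 for Akr1c14 and 7.53 ± 2.27 for Fmo1 (SD, n = 4). The ranges of Slc4a10 and Akr1c14 overlapped, whereas every Ambp library was above every Slc4a10 library and every Fmo1 library was below every Akr1c14 library.

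Fmo1 was at 8.21, 5.24, 6.30 and 10.4 RPKM with Ad-LacZ. With Ad-Cre it was at 1.59, 0.732, 0.976 and 0.595 RPKM. The highest Ad-Cre library was well below the lowest Ad-LacZ library, and the means of 0.973 ± 0.440 and 7.53 ± 2.27 RPKM were 7.74-fold apart. By preparation the ratio of Ad-LacZ to Ad-Cre went from 5.16 in F1 to 17.5 in F2. This widest ratio combined the highest Ad-LacZ value with the lowest Ad-Cre value, the latter resting on 88 reads (95% counting interval 0.477 to 0.733 RPKM).

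Akr1c14 was at 13.6, 16.8, 20.4 and 15.1 RPKM with Ad-LacZ, and at 3.12, 4.93, 2.41 and 2.74 RPKM with Ad-Cre. Slc4a10 was at 16.8, 17.9, 17.8 and 17.9 RPKM with Ad-LacZ, and at 3.43, 5.29, 2.56 and 3.26 RPKM with Ad-Cre. Both genes had their highest Ad-Cre value in M1 and their lowest in M2. The means were 5.00-fold lower in Ad-Cre for Akr1c14 (3.30 ± 1.13 RPKM) and 4.84-fold lower for Slc4a10 (3.63 ± 1.16 RPKM). Slc4a10 was the most even gene among the 4 in Ad-LacZ, and its spread there was smaller than in Ad-Cre although its level was higher.

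Ambp went the other way. It was at 19.2, 21.5, 29.4 and 28.9 RPKM with Ad-LacZ, and at 79.1, 68.9, 66.1 and 94.4 RPKM with Ad-Cre. The mean was 3.11-fold higher in Ad-Cre (77.1 ± 12.8 RPKM), with ratios of 2.25 in M2 to 4.11 in F1. The lowest Ad-Cre library was above the highest Ad-LacZ library. Ambp was the most abundant of the 4 genes in both groups.

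**Figure D1:**
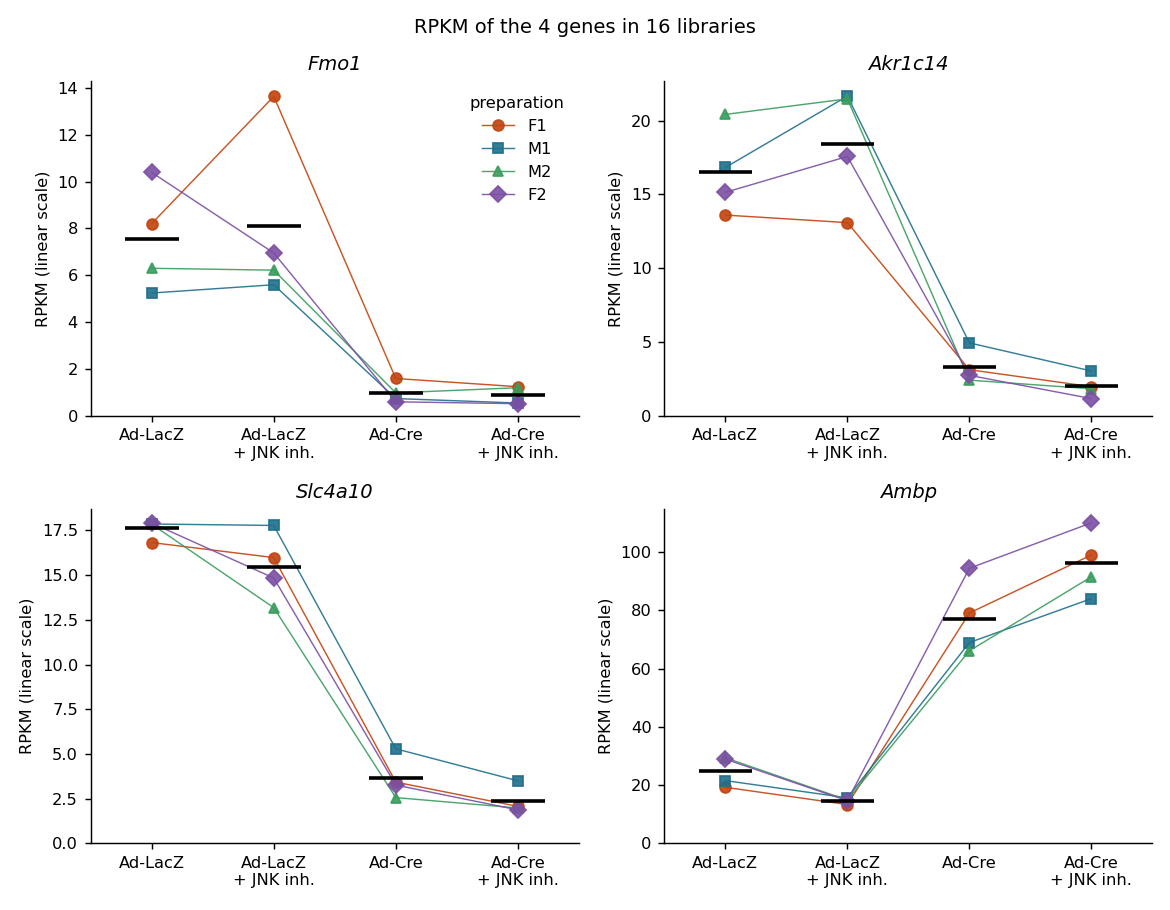
RPKM of each gene (linear axes starting at 0) in the 4 treatments, with 1 point per library, thin lines joining the libraries of a preparation and black bars for the mean of 4 libraries. Fmo1, Akr1c14 and Slc4a10 lay at 0.513 to 5.29 RPKM in all Ad-Cre libraries with or without inhibitor, and Ambp at 66.1 to 110.0 RPKM.

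On the log2 scale of TMM-scaled RPKM + 1, which understates changes of low genes, the differences between Ad-Cre and Ad-LacZ were -2.08 for Fmo1, -2.02 for Akr1c14, -2.01 for Slc4a10 and 1.63 for Ambp. Among 11590 genes tested these ranked 1, 3 and 4 from the lowest, and 37 from the highest for Ambp. Genes were tested if they exceeded 1 RPKM in 4 or more of the 8 libraries. Fmo1 met this limit through its Ad-LacZ libraries, since only F1 exceeded 1 RPKM in Ad-Cre (1.59 RPKM). Without preparation F1 it was not tested. Fmo1 had no gene before it and Ucn3 (-2.08) after it, Akr1c14 stood between Ucn3 and Slc4a10, and Slc4a10 was followed by G6pc2 (-1.93). Ucn3 and G6pc2 encode the peptide urocortin 3 and a subunit of glucose-6-phosphatase of β cells. In the order of rises, Ambp lay between n-R5s123 (1.66), a ribosomal RNA gene with near-identical copies, and the complement gene C3 (1.62). For scale, limma called 4.06% of the genes tested lower and 4.59% higher (adjusted p under 0.05 and more than 1.5-fold), and the 2 groups did not overlap in RPKM in 27.7% of genes. These shares say nothing about the 4 genes, which were picked on that comparison.

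The differences were even in sign, with 4 of 4 preparations alike for each gene, but less so in size. Across preparations the log2 difference of Fmo1 had an SD of 0.520, that of Akr1c14 0.451, that of Ambp 0.358 and that of Slc4a10 0.342. The median SD over all genes was 0.194, and 85.1% of genes had a smaller SD than Slc4a10 and 95.3% a smaller one than Fmo1.

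The question whether the 4 genes differed in the same way when JNK was inhibited was put to the other 8 libraries, which come from the same 4 preparations. Each of the 4 genes did. Fmo1 was at 13.6, 5.59, 6.22 and 6.95 RPKM in Ad-LacZ + JNK inhibitor and at 1.24, 0.542, 1.196 and 0.513 RPKM in Ad-Cre + JNK inhibitor. It fell by 2.12 on the log2 scale (SE, the standard error, 0.31, adjusted p = 0.00227 by limma), and the means of 8.10 ± 3.73 and 0.873 ± 0.399 RPKM were 9.28-fold apart. Fmo1 passed the filter through the 4 libraries in which it was high, since only 2 of the 4 Ad-Cre + JNK inhibitor libraries exceeded 1 RPKM. The lowest value rested on 25 reads and had a counting interval of 0.332 to 0.758 RPKM.

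Akr1c14, the steroid dehydrogenase, was at 13.1, 21.7, 21.5 and 17.6 RPKM in Ad-LacZ + JNK inhibitor and at 1.97, 3.03, 1.83 and 1.16 RPKM in Ad-Cre + JNK inhibitor. It fell by 2.58 (SE 0.20, adjusted p = 0.000201 by limma), which placed it second from the lowest among 11598 genes, after Igkc, an immunoglobulin gene. Slc4a10, the bicarbonate transporter, was at 16.0, 17.8, 13.2 and 14.8 RPKM against 2.07, 3.499, 1.98 and 1.87 RPKM. Its decrease was by 2.18 (SE 0.20, adjusted p = 0.000382 by limma). As without inhibitor, M1 had the highest value of both genes among the Ad-Cre libraries.

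Ambp was at 13.3, 15.6, 14.9 and 14.7 RPKM in Ad-LacZ + JNK inhibitor and at 99.0, 84.0, 91.5 and 110.0 RPKM in Ad-Cre + JNK inhibitor. It rose by 2.79 (SE 0.13, adjusted p = 3.17e-05 by limma), the rise of rank 8 among 11598 genes, next to Cgref1 (2.87) and Sdf2l1 (2.78). The means of 14.6 ± 0.962 and 96.1 ± 11.1 RPKM were 6.57-fold apart, and the ratio was 5.37 in M1 to 7.50 in F2.

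In this comparison limma called 6.01% of genes lower and 8.83% higher, and the groups did not overlap in 29.7% of genes. All 4 members were called and none of their groups overlapped. An exact permutation test over the 8 libraries, two-sided, gave p = 0.0286 for each, the smallest p that 4 against 4 allow. The direction was the same in 4 of 4 preparations for each gene. These preparations are those in which the genes were chosen, so the p-values are no test in other islets. Neither limma without a block nor the permutation test kept the pairs of a preparation. Their p-values thus rest on the spread between preparations within a group. These p-values would be no test at all if the inhibitor cultures entered the choice. Without the library from the other sequencing run the log2 differences were -2.02 for Fmo1, -2.42 for Akr1c14, -2.10 for Slc4a10 and 2.73 for Ambp. RPKM as deposited, without TMM scaling, moved the median of all genes by -0.13 on the log2 scale and turned the split of calls from 1024 higher and 697 lower to 673 higher and 1240 lower. The 4 differences were then -2.23, -2.71, -2.31 and 2.63.

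**Figure D2:**
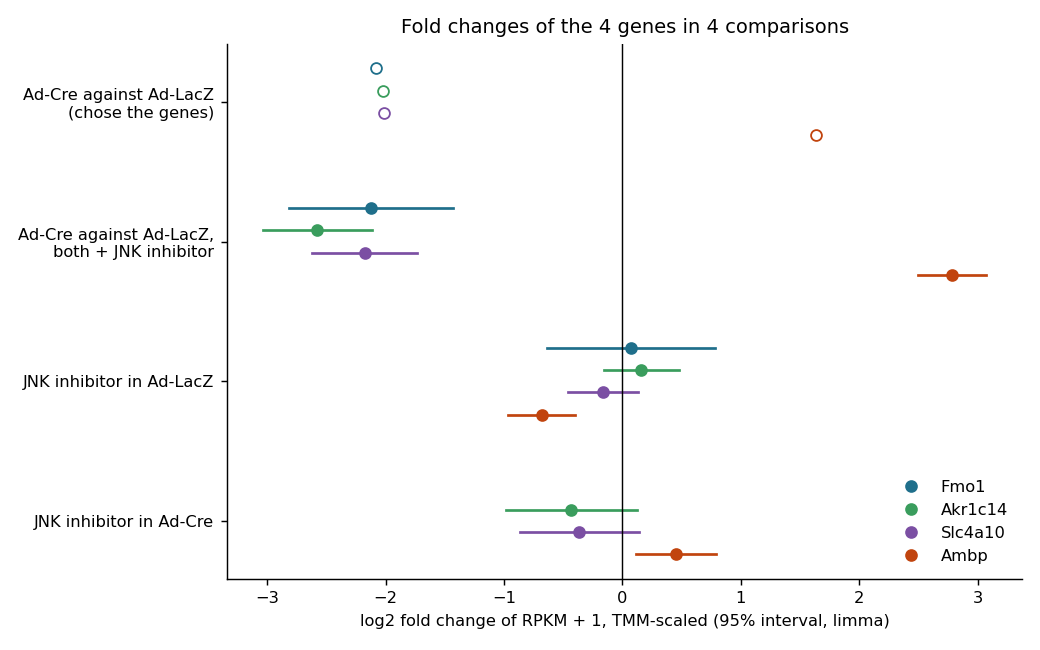
Log2 fold changes of TMM-scaled RPKM + 1 for the 4 genes in 4 comparisons, with 95% intervals from limma (filled points) and without intervals for the comparison that chose the genes (open points). Under JNK inhibitor Fmo1, Akr1c14 and Slc4a10 lay at -2.12, -2.58 and -2.18 and Ambp at 2.79, while the 2 effects of the inhibitor stayed within 1 of 0 and had opposite signs for Ambp. Fmo1 in Ad-Cre is missing because it was below the filter there.

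The effect of the inhibitor itself was taken within each virus. These comparisons share a group with those above, so their values stand side by side and are not independent. The groups without inhibitor are also those on whose values the genes were chosen. The p-values of the 4 genes within a virus are therefore not independent of that choice. In Ad-LacZ, Ambp was at 19.2 to 29.4 RPKM without and 13.3 to 15.6 RPKM with inhibitor, and the groups did not overlap, as in 4.84% of 11657 genes. Its log2 difference was -0.68 (SE 0.13, 95% interval -0.97 to -0.40), lower in 4 of 4 preparations, with p = 0.0286 in the exact permutation test. It missed the threshold over all genes (adjusted p = 0.113 by limma), at which 0.154% of genes were called higher and 0.0515% lower (more than 1.2-fold). The decrease was larger in M2 and F2, at -0.91 and -1.02, than in F1 and M1, at -0.37 and -0.44.

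In Ad-Cre the inhibitor went with more Ambp. Values were 66.1 to 94.4 RPKM without and 84.0 to 110.0 RPKM with inhibitor, so the ranges overlapped, but each preparation was higher with inhibitor, by 0.33 in F2 to 0.69 in M2 on the log2 scale. The mean difference was 0.45 (SE 0.15, 95% interval 0.11 to 0.79, exact permutation p = 0.0286, computed on scaled values, which did not overlap). Over all genes it missed the threshold without a block for the preparation (adjusted p = 0.379 by limma) and passed with one (adjusted p = 0.0370 by limma), a fit that called 3.8% of genes higher and 2.28% lower. The difference was 0.32 with RPKM as deposited and 0.23 with quantile normalization (adjusted p = 0.366 and 0.785 by limma). In this comparison limma without a block called 0.0% of 11503 genes higher and 0.0% lower, while 1097 genes had an unadjusted p under 0.05 and the groups of 11.5% of genes did not overlap.

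Akr1c14 was lower with inhibitor in all 4 Ad-Cre preparations, by a mean log2 difference of -0.43 (95% interval -0.98 to 0.12, adjusted p = 0.631 by limma). In TMM-scaled values it was higher in all 4 Ad-LacZ preparations, by 0.16 (interval -0.16 to 0.48, adjusted p = 1 by limma). Slc4a10 was lower by -0.36 in Ad-Cre (interval -0.87 to 0.14, adjusted p = 0.657 by limma), in 4 of 4 preparations, and by -0.17 in Ad-LacZ (interval -0.46 to 0.13, adjusted p = 0.998 by limma), in 3 of 4. The counts of preparations in Ad-LacZ depend on the scaling. In RPKM both genes were lower with inhibitor in F1, at 13.1 against 13.6 for Akr1c14 and 16.0 against 16.8 for Slc4a10. Neither gene passed in either virus. With the preparation as a block the intervals in Ad-Cre were narrower and lay below 0, at -0.70 to -0.16 for Akr1c14 and -0.59 to -0.14 for Slc4a10 (adjusted p = 0.0755 and 0.0747 by limma). Without the library of the other run, in which Akr1c14 had 29 reads, the differences without a block were -0.26 and -0.27.

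Fmo1 differed between inhibitor and vehicle by less than its spread. In Ad-LacZ its log2 difference was 0.07 (95% interval -0.64 to 0.78, adjusted p = 1 by limma), with 0.81, 0.08, 0.01 and -0.60 in the 4 preparations. In Ad-Cre it was above 1 RPKM in too few libraries to be tested over all genes. The means there were 0.973 ± 0.440 and 0.873 ± 0.399 RPKM (exact permutation p = 1), and without the filter the log2 difference was -0.01 (95% interval -0.51 to 0.48).

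**Figure D3:**
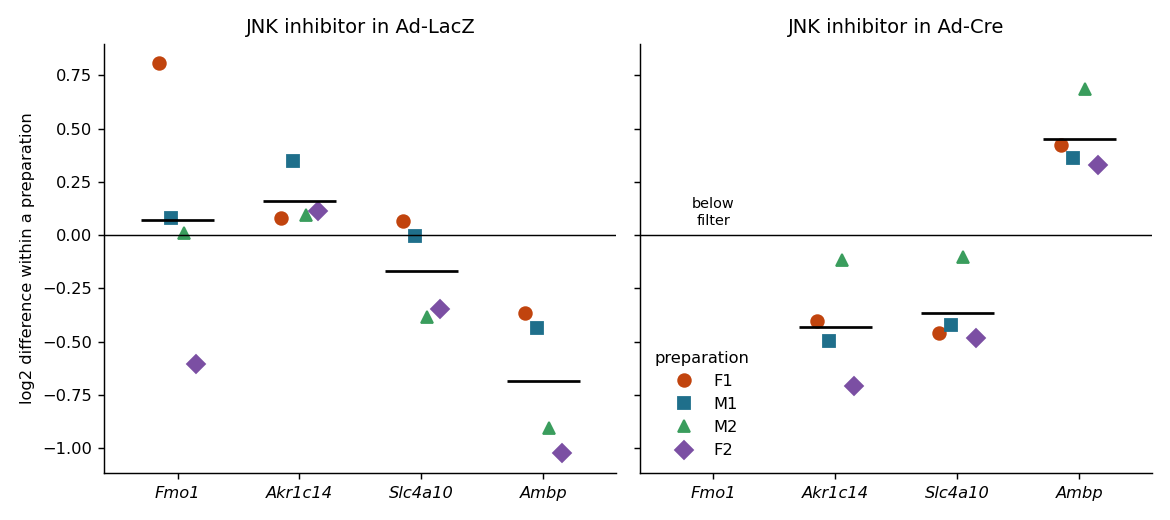
Log2 differences of TMM-scaled RPKM + 1 with against without JNK inhibitor within each preparation, in Ad-LacZ (left) and Ad-Cre (right), with black bars for the mean of 4 preparations. Ambp lay below 0 in all 4 Ad-LacZ pairs (-0.37 to -1.02) and above 0 in all 4 Ad-Cre pairs (0.33 to 0.69), and Akr1c14 lay above 0 in all Ad-LacZ pairs (0.08 to 0.35) and below 0 in all Ad-Cre pairs (-0.12 to -0.71). The Akr1c14 point of F1 in Ad-LacZ is above 0 only after scaling. Fmo1 is not shown in Ad-Cre, where it was below the filter.

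The preparations were labelled 2 as F and 2 as M, which allows no exact two-sided p under 0.333. A full separation of F and M has that p. It occurred in 7 of the 16 sets of 4 libraries, and the share over all genes was not computed. The orders below are therefore a description. Fmo1 was higher in both F than in both M preparations in Ad-LacZ (8.21 and 10.4 against 5.24 and 6.30 RPKM) and in Ad-LacZ + JNK inhibitor (6.95 and 13.6 against 5.59 and 6.22 RPKM), and the F and M values overlapped in both Ad-Cre groups. Akr1c14 had the reverse order in the same groups, with means of 14.4 in F and 18.6 RPKM in M for Ad-LacZ. Ambp was higher in F in both Ad-Cre groups, with means of 86.7 against 67.5 RPKM without inhibitor, and higher in M in Ad-LacZ + JNK inhibitor (14.9 and 15.6 against 13.3 and 14.7 RPKM). Slc4a10 overlapped between F and M in all 4 groups.

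Over the 16 libraries the levels of Akr1c14 and Slc4a10 had a Pearson r of 0.98, and after subtraction of each group's mean r was still 0.72. Fmo1 had r of 0.89 with Akr1c14 and 0.92 with Slc4a10, but -0.27 and 0.13 after that subtraction. The r of Ambp with the other three was -0.90 to -0.95 and, after subtraction, -0.03 to 0.16. These are descriptions without a test, since all points share the 4 treatments and the 4 preparations.

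The genes most like each member over the 16 libraries, among 12274, were found by the same r. For Fmo1 they were Cyp4v3, a fatty acid hydroxylase (0.97), Fer1l6, Lrp2bp, Sorbs2, an adaptor of the actin cytoskeleton, and Crem, a regulator of transcription in the cAMP pathway. For Akr1c14 they were Akap6, which anchors protein kinase A (0.99), Slc4a10, Tmtc2, D5Ertd579e and Hepacam2. For Slc4a10 they were Sgcz (0.99), Tnfrsf9, D5Ertd579e, Hepacam2 and Nalcn, a sodium leak channel. The last 2 had 12.6 ± 2.84 and 4.14 ± 0.350 RPKM in Ad-Cre, against 43.8 ± 3.14 and 8.09 ± 0.323 RPKM in Ad-LacZ (SD, n = 4). For Ambp they were Pdhb, a subunit of pyruvate dehydrogenase (0.99), Ubqln4, Armcx6, Herpud1, which takes part in degradation of ER proteins, and Rbm38. Pdhb followed Ambp also within groups (r of 0.88), with 26.2 ± 3.59 RPKM in Ad-LacZ, 41.0 ± 6.12 in Ad-Cre, 21.5 ± 1.46 in Ad-LacZ + JNK inhibitor and 42.4 ± 3.70 in Ad-Cre + JNK inhibitor. For Ubqln4, Armcx6, Herpud1 and Rbm38 the r with Ambp within groups was 0.41, 0.58, 0.42 and 0.59. Such values were not particular to Ambp, since D5Ertd579e had 0.89 with Slc4a10 and Fer1l6 had 0.88 with Fmo1.

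The other genes of the 4 families and of the pathways they act in were mostly not called. Of 73 such genes, 26 passed the filter between Ad-Cre and Ad-LacZ, where 0 were called higher and 1 lower by limma. Between the same viruses under inhibitor 29 passed, of which 1 was called higher and 4 lower, with Fmo2 among the latter having passed only through the group in which it was high. Those called were 3.85% and 17.2% of the family genes tested, against 4.59% higher with 4.06% lower and 8.83% higher with 6.01% lower over all genes.

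Fmo2, the gene next to Fmo1 at a distance of 7.71 kb on the same strand, was the only other FMO gene above the filter, which it passed under inhibitor. It had 1.40 ± 0.501 RPKM in Ad-LacZ and 0.335 ± 0.122 in Ad-Cre, and 1.30 ± 0.326 and 0.224 ± 0.0370 RPKM with inhibitor (SD, n = 4 each). The gene passed the filter only through the Ad-LacZ + JNK inhibitor libraries, where it was above 1 RPKM, so that a gene tested in this way had to be higher there. The latter difference was -0.85 on the log2 scale (SE 0.15, adjusted p = 0.00535 by limma), and with 1 preparation left out the gene could be tested in no fit, since it then fell below the filter. Without a filter its difference in the cultures without inhibitor was -0.82 (adjusted p = 0.0196 by limma). Fmo4, on the other side of Fmo1 at 15.6 kb, was at 0.860 ± 0.126 RPKM in Ad-LacZ and 0.160 ± 0.0775 in Ad-Cre, below the filter. Fmo5 was at 0.790 ± 0.264 and 0.466 ± 0.117 RPKM. Fmo6 was at 0.141 RPKM or less in every library, and Fmo9 was listed at 0 in all 16 libraries.

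Of the aldo-keto reductases and 5α-reductases, 10 of 19 were tested under inhibitor. Akr1c13, which lies 100.5 kb from Akr1c14 in the same cluster, was at 34.3 ± 6.78 RPKM in Ad-LacZ + JNK inhibitor and 17.7 ± 2.57 in Ad-Cre + JNK inhibitor, a log2 difference of -0.76 (SE 0.22, adjusted p = 0.0403 by limma). That call was lost without F1, M1 or F2 (limma's adjusted p of 0.0752, 0.163 and 0.0932) without the library of the other run (0.0828) and without a filter (0.0734). Without inhibitor Akr1c13 and Akr1c12 had log2 differences of -0.76 and -0.75, with limma's adjusted p of 0.0649 and 0.0978, and of 0.00319 and 0.00787 with the preparation as a block. Reads of these near-identical neighbours can be split between them, so their values are uncertain, as is that of Akr1c14 where it resembles them. Akr1b3, aldose reductase, rose under inhibitor by 0.74 (SE 0.13, adjusted p = 0.00578 by limma, and 0.0588 without F2). Srd5a3, the only gene of the 5α-reductase family above the filter, had a difference of -0.09 (SE 0.15, adjusted p = 0.706 by limma). Srd5a1, below the filter, was at 0.287 ± 0.131 RPKM in Ad-LacZ and 0.715 ± 0.283 in Ad-Cre. With inhibitor it was at 0.402 ± 0.0962 and 0.515 ± 0.185 RPKM. The median log2 difference of the tested genes of this list was 0.02, against -0.01 over all genes.

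Among the SLC4 transporters, 4 of 9 were tested. Slc4a7, another sodium bicarbonate carrier, was at 17.8 ± 1.26 RPKM in Ad-LacZ + JNK inhibitor and 8.65 ± 1.09 in Ad-Cre + JNK inhibitor, a decrease by 0.82 (SE 0.13, adjusted p = 0.00303 by limma). Without inhibitor it fell by 0.56 (SE 0.11, adjusted p = 0.00994 by limma), just under the 1.5-fold limit, and missed the threshold without F1 or F2 (limma's adjusted p of 0.0563 and 0.0659). It was called with RPKM as deposited, with a pseudocount of 0.1 and without M1 (-0.59, -0.61 and -0.63). Slc4a2, Slc4a3 and Slc4a8 had differences of 0.23, 0.04 and 0.11 under inhibitor and were not called. Of the carbonic anhydrases, which make bicarbonate, 5 of 16 were tested under inhibitor. Car8, a family member without the enzyme activity, fell by 1.27 there (SE 0.22, adjusted p = 0.00496 by limma) and by 0.83 without inhibitor (SE 0.21, adjusted p = 0.0263 by limma). Both calls were lost when M1 or F2 was left out (limma's adjusted p of 0.0557 and 0.0619 with inhibitor, 0.107 and 0.129 without), and the second also without F1 (0.0507) and without a filter (0.0531). Car10, likewise inactive, had -0.81 and -0.86 (limma's adjusted p of 0.0689 and 0.108, and of 0.00770 and 0.00522 with the block).

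The genes related to Ambp were mostly at other levels. The heavy chains Itih1 to Itih5, partners of bikunin, summed to 0.477 to 1.05 RPKM in Ad-LacZ and 0.684 to 1.65 in Ad-Cre, and 0 of 5 passed the filter in any comparison. Of 11 lipocalins, 2 were tested under inhibitor. Rbp4, the plasma carrier of retinol, had a log2 difference of 1.03 there (SE 0.36, adjusted p = 0.0714 by limma, and 0.0314 with the block). All 7 genes of the list of Kunitz-type inhibitors were tested and 0 were called, also by the fit with the block. The list holds Aplp1, a relative of App that is not itself a Kunitz-type inhibitor. The median difference of the 7 genes was 0.35 under inhibitor and 0.10 without, the latter being the value of Aplp1.

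**Figure D4:**
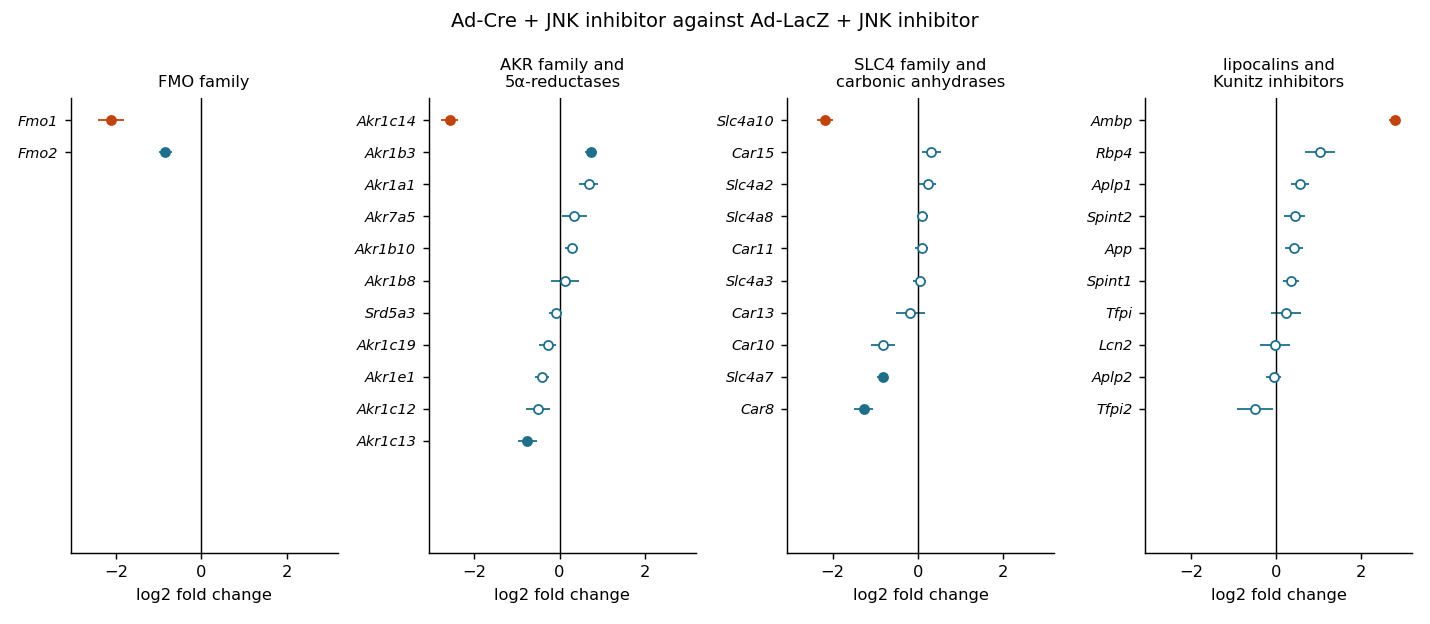
Log2 fold changes of TMM-scaled RPKM + 1 between Ad-Cre + JNK inhibitor and Ad-LacZ + JNK inhibitor for each member (first row of each panel) and the tested genes of its lists, with bars for 1 SE and filled points for genes that limma called. The members lie at -2.12, -2.58, -2.18 and 2.79, and the other genes between -1.27 (Car8) and 1.03 (Rbp4).

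Markers of the cell types in the cultures moved in part with the same comparisons. In bulk samples, fewer cells of a type and less RNA per cell cannot be told apart. Of the 27 β cell markers, 8 were called lower and 0 higher between Ad-Cre and Ad-LacZ (median log2 difference -0.69). Under inhibitor 8 were called lower and 0 higher (median -0.59). Over all genes that fit called 4.06% lower and 4.59% higher without inhibitor, and 6.01% lower and 8.83% higher with it. With the preparation as a block, 16 β cell markers were called lower and 0 higher without inhibitor, and 13 lower and 1 higher with it. The block fit called 4.88% of all genes lower and 5.98% higher without inhibitor, and 6.5% lower and 9.44% higher with it. The summed level of the β cell markers overlapped between all groups, with means of 79470 ± 16104 RPKM in Ad-LacZ and 67911 ± 25286 in Ad-Cre. Of 9 α cell markers 0 were called in either comparison. With the block 1 was called lower without inhibitor and 1 higher with it. Their median log2 difference was 0.0062 without inhibitor (5 of 9 above 0) and 0.56 with it (8 of 9 above 0). Markers of PP cells summed to 2229 to 3806 RPKM in Ad-LacZ + JNK inhibitor and 4216 to 6795 in Ad-Cre + JNK inhibitor, without overlap, and Ppy, pancreatic polypeptide, was called higher (0.95, adjusted p = 0.0219 by limma). The δ cell markers, a list that also holds Rbp4, had a median log2 difference of 0.77 there, with 0 of 4 tested called, and 3 with the block. The summed level of the 10 macrophage markers was 85.6 to 97.2 RPKM in Ad-LacZ, 90.1 to 255 in Ad-Cre, 167 to 360.0 in Ad-LacZ + JNK inhibitor and 205 to 344 in Ad-Cre + JNK inhibitor, and that of the 8 duct markers was 309 to 469.9, 343 to 576, 572 to 1194 and 555 to 586 RPKM. Both sums were thus higher in every library of Ad-LacZ + JNK inhibitor, in which Ambp was lowest, than in those of Ad-LacZ. There limma called 3 of 9 tested macrophage markers and 0 of 6 duct markers higher, against 0.154% of all genes. Between Ad-Cre and Ad-LacZ it called 3 of 9 macrophage markers and 1 of 5 duct markers higher, against 4.59% of all genes. Under inhibitor it called 0 of 9 macrophage markers. Of 5 duct markers it called 2 higher and 1 lower, against 8.83% and 6.01% of all genes. With the block 5 macrophage markers were called higher between Ad-Cre and Ad-LacZ, against 5.98% of all genes, and 0 under inhibitor. For the inhibitor in Ad-LacZ the block fit called 1 macrophage and 1 duct marker higher, among 42 genes called in all. The stellate and fibroblast markers summed to 148 to 2083 RPKM over the 16 libraries, and the sums overlapped between the groups. The median log2 difference of this list was 0.88 between Ad-Cre and Ad-LacZ (6 of 6 tested above 0). It was -0.79 under inhibitor (0 of 8 above 0), and 1.38 for the inhibitor in Ad-LacZ (6 of 6). Without a block 0 were called in these comparisons. With the block 4 were called lower under inhibitor, and 0 between Ad-Cre and Ad-LacZ without it. For the inhibitor in Ad-LacZ the block fit called 1 higher. Acinar markers summed to 1.80 to 10.6 RPKM, with 1 of 10 at 0 in all libraries and none of the other lists' markers at 0 throughout. The part of these cell types in the values of the 4 genes was not tested.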

How the data were processed

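Bulk RNA sequencing of 16 libraries (4 islet preparations in each of 4 treatments) was used. Per the paper, poly(A) libraries were sequenced in pairs and the reads aligned to the mouse genome; the submitters' processing notes name GRCm38. The authors deposited RPKM for 25105 genes, with 3 further columns of values that no label names and that were not used. Multiplied by GENCODE M21 exon lengths, the RPKM of the 4 genes gave whole reads in all 16 libraries (within 0.02 of a read), from which depth and Poisson intervals (95%, counting error only) were computed.

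RPKM were divided by TMM factors (trim of 30% of ratios and 5% of levels, no weights), and log2(RPKM + 1) was analysed in R 4.3.3 by linear models of limma 3.58.1, moderated with a trend keeping genes that exceeded 1 RPKM in 4 or more libraries of the 8 compared, with Benjamini-Hochberg adjustment over all genes tested. Genes were called at an adjusted p under 0.05 and a fold change above 1.5 (virus) or 1.2 (inhibitor). The 4 genes also had exact two-sided permutation tests on TMM-scaled log2 values. These reshuffled the 8 libraries without keeping the pairs of a preparation. The procedure was tested on simulated data.

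Libraries of the same number came from parallel cultures of 1 biological replicate, and their deviations from group means correlated at 0.126 to 0.824 in every pair. The preparation as a block, other scalings, filters and pseudocounts, and leaving out each replicate were the alternatives. The members and lists were chosen with earlier results of these data known. Family and marker genes were named as members of their lists, neighbours by rank of log2 difference, and like genes as the 5 of highest Pearson r. Promoters came from RefSeq (3 of the 4 genes matched).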

Additional observations from a re-analysis of the deposited data

Results flagged for a closer look

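In groups of 4 libraries, 3 of 16 sets of values of the 4 genes had 1 library far from the other three, where chance flags about 1 in 20 groups. Fmo1 in Ad-LacZ + JNK inhibitor was at 13.6 RPKM in F1, against 5.59 to 6.95 in the others. Slc4a10 in Ad-LacZ was at 16.8 RPKM in F1, against 17.8 to 17.9, a small distance that stands out because the other values were close. Slc4a10 in Ad-Cre + JNK inhibitor was at 3.499 RPKM in M1, against 1.87 to 2.07.

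Ambp moved in opposite directions with the inhibitor in the 2 viruses, by 0.45 on the log2 scale in Ad-Cre (4 of 4 preparations higher) and by -0.68 in Ad-LacZ (4 of 4 lower). Akr1c14 had the reverse pattern with smaller values, -0.43 in Ad-Cre (4 of 4 lower) and 0.16 in Ad-LacZ (4 of 4 higher). The count for Akr1c14 in Ad-LacZ holds for TMM-scaled values. In RPKM it was lower with inhibitor in F1 (13.1 against 13.6). The difference between the viruses was not tested, since it holds the comparison on which the genes were chosen.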

How the results depend on the processing

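With the 4 genes compared between Ad-Cre and Ad-LacZ under inhibitor, direction and call were the same in all alternatives run. The log2 difference lay between -2.93 and -1.95 for Fmo1, -3.03 and -2.42 for Akr1c14, -2.54 and -2.10 for Slc4a10, and 2.57 and 2.89 for Ambp. Without inhibitor, a pseudocount of 0.1 moved Fmo1 from -2.08 to -2.84, and Fmo1 fell below the filter when F1 was left out. For the inhibitor within a virus, the 1 call that changed was Ambp in Ad-Cre with the preparation as a replicate block (0.45, adjusted p = 0.0370 by limma), and the paired fit changed no other call of the 4 genes. In Ad-LacZ the sign of Fmo1, which was not called, went from -0.17 to 0.30 as replicates were left out.

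Counts of genes called moved more. Leaving out 1 replicate gave 327 (without F2) to 755 genes (without M2) between Ad-Cre and Ad-LacZ (1003 with all), 521 (without M1) to 2425 (without M2) under inhibitor (1721), and 1 to 2 for the inhibitor in Ad-LacZ (24). For the latter the count was 4 without a filter, 7 with RPKM as deposited and 42 with the block. For the inhibitor in Ad-Cre (0) it was 1 with quantile normalization, 83 with all 16 libraries in one fit and 699 with the block. Of the family genes, leaving out 1 replicate gave 0 (without F1 or F2) to 1 call without inhibitor (1) and 1 (without F2) to 7 with it (5), with 2 without M1 and 3 without F1; the block gave 4 and 7. The cause was not tested. Fmo1 rests on 88 to 143 reads a library in Ad-Cre and on 25 to 153 in Ad-Cre + JNK inhibitor, which limits its precision.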
